A study of Mus musculus with 60 samples.

Results

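The intermediate filament genes described here are 8 keratins together with vimentin (Vim) and nestin (Nes), taken as the rows of the count tables that carry the symbols Krt8, Krt7, Krt5, Krt80, Krt18, Krt19, Krt14, Krt20, Vim and Nes. All 10 were found in each of the 3 tables, which list 54532, 54532 and 55487 genes. In each experiment 8 of the 10 passed the filter on low counts and could be tested: Krt5 and Krt14 did not pass in either NMuMG experiment, and Krt5 and Krt20 did not pass in 4T1. RNA was sequenced in 60 libraries, 20 groups of 3 that the labels call biological replicates, from 2 mouse cell lines: NMuMG, labelled epithelial cells, and 4T1, labelled a triple negative breast cancer. Experiment 1 set NMuMG cells with PBRM1 KO (sgPBRM1) against Control cells (sgCT), each kept for 0, 24, 48 or 72 h with TGFβ1 (5 ng/ml) to start an epithelial to mesenchymal transition. Experiment 2 set NMuMG cells with the genotype ATF3 KD (shATF3) against pLKO vector cells over the same 4 times, and experiment 3 set 4T1 cells with PBRM1 KD (shPBRM1) against pLKO vector cells at 4 d and 0 h of the same dose. PBRM1 is a subunit of a SWI/SNF chromatin remodelling complex and ATF3 is a stress-induced transcription factor. The sources used here do not say whether the altered lines are clones or pools.

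Keratins are the intermediate filament proteins of epithelial cells and assemble only as pairs of a type II and a type I chain. Krt8 (type II) and Krt18 (type I) are the pair of simple epithelia, and Krt7 and Krt19 join them in ducts and glands, where Krt19 stands out as the shortest keratin, with almost no tail domain. Krt5 and Krt14 pair in basal and myoepithelial cells of the mammary gland, Krt20 is known from gut and bladder lining, and Krt80 is a less studied type II keratin. Vimentin builds the filaments of mesenchymal cells, and nestin, known from progenitor and regenerating cells, joins vimentin filaments. In textbook descriptions of an epithelial to mesenchymal transition, keratin filaments give way to vimentin filaments. In the tables the type II genes Krt8, Krt7, Krt5 and Krt80 and the type I gene Krt18 lie on chromosome 15, and Krt19, Krt14 and Krt20 lie on chromosome 11 (mm10).

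Library totals were 16225851 to 21883719 counts in experiment 1, 15643826 to 22708269 in experiment 2 and 22019846 to 31061668 in experiment 3. Levels are counts-per-million values (CPM) of each library, scaled by TMM factors of 0.941 to 1.09. Pbrm1 averaged 97.1 CPM in PBRM1 KO libraries and 115 CPM in Control libraries at 0 h, and gene-level counts do not show a small deletion, so this level is a weak check of the label. In 4T1 at 0 h, Pbrm1 averaged 28.3 CPM in shPBRM1 libraries and 236 CPM in pLKO libraries. Atf3 averaged 12.3 CPM in libraries labelled shATF3 and 9.94 CPM in pLKO libraries at 0 h, which goes against the label, and 17.8 CPM against 26.9 CPM at 24 h. Every direction drawn from experiment 2 is therefore one between libraries labelled shATF3 and pLKO libraries. Among luminal markers, NMuMG libraries held Cdh1 (E-cadherin, 827 CPM in Control at 0 h) and Cd24a (459 CPM) but almost no Epcam (0.447 CPM), Cldn3 (0.0181 CPM) or Cldn7 (0.0705 CPM), and 7 or 8 of 15 luminal markers were over 1 CPM. 4T1 pLKO libraries at 0 h had 12 of 15 over 1 CPM, with 242 CPM of Epcam and 138 CPM of Cldn3. In these bulk samples, fewer cells of a type and less RNA per cell cannot be told apart.

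Krt8 and Krt18 were the most abundant of the 10 mRNAs in all 16 NMuMG groups, with or without division by gene length, and in the 4 groups of 4T1 per kilobase of the tables' gene length, while Krt5 was at or near 0 throughout. Per kilobase of the gene length in the tables, Control libraries at 0 h averaged 2503 CPM of Krt8, 2314 of Krt18, 715 of Krt19 and 389 of Vim. They averaged 204 of Krt20, 111 of Krt7, 4.13 of Krt80 and 0.666 of Nes. No neighbours among these 8 overlapped between libraries. Krt5 and Krt14, below them, overlapped. At 72 h the Control order per kilobase was Krt18, Krt8, Vim, Krt20, Krt19, Krt7, Krt80 and Nes, with Krt19 down to 66.1 CPM per kilobase and Vim at 388. 4T1 had a different order: pLKO libraries at 0 h averaged 849 CPM per kilobase of Krt18, 706 of Krt8, 340.5 of Vim, 179.7 of Krt7, 62.5 of Nes, 58.6 of Krt19, 19.4 of Krt80 and 3.72 of Krt14. Levels of the 3 experiments come from tables made separately and were not tested against each other. With the shorter length of the main coding transcript, an alternative chosen after seeing the data, Vim stood above Krt8 in all 4 groups of 4T1 (736 and 706 CPM per kilobase in pLKO libraries at 0 h). It then also stood above Krt18 in shPBRM1 libraries, with 896 and 882 CPM per kilobase at 4 d and 925 and 839 at 0 h, and without division by length Vim ranked first in all 4 groups.

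The 250 bases before the start of 3 genes are printed because these genes stand out in the results below. No change in level was tied to the sequences. Among the members Krt7 has the largest difference between PBRM1 KO and Control libraries, Nes the largest rise at 72 h of TGFβ1 in the NMuMG lines and Vim a high level in every group. The sequences are those of RefSeq on GRCm38.p6, whose promoter table held 8 of the 10 genes, all but Krt19 and Krt80.

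Capitals mark matches on either strand, which do not overlap here, to TGANTCA (known as the AP-1 site), CAGAC (known as the SMAD box), CACCTG (known as an E-box), GGGCGG (known as the GC box) or the TATA box, searched for as TATAAA.
Krt7, chr15:101412153-101412402, plus strand: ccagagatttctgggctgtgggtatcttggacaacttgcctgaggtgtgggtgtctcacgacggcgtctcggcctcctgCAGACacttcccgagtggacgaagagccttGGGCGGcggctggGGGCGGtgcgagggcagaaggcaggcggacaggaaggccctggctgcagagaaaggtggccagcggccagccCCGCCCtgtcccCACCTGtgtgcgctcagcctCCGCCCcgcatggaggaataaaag
Nes, chr3:87970843-87971092, plus strand: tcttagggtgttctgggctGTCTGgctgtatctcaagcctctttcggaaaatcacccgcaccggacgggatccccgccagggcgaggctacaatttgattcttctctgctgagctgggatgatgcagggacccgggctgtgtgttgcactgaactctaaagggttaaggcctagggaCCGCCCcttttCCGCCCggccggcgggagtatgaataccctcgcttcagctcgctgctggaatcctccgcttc
Vim, chr2:13574061-13574310, plus strand: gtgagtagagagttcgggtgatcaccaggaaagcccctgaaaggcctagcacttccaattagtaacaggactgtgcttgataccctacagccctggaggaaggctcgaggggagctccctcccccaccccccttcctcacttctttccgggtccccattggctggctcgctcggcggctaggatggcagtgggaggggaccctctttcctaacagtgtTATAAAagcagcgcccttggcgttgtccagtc
The Krt7 window holds CAGAC 171 bases before the start, CACCTG 44 bases before it and GGGCGG at 141, 128, 56 and 24 bases, the Nes window holds CAGAC at 231 bases and GGGCGG at 73 and 62 bases, and the Vim window holds TATAAA at 32 bases. Of 32851 mouse promoter windows of the same length, 6.75% hold TGANTCA, 42.2% CAGAC, 17.2% CACCTG, 32.7% GGGCGG and 12.4% TATAAA, each at least once and at any place. None of the 8 windows held TGANTCA, which says only that these letters are not in them. The Krt7 and Vim windows lie inside the spans that the tables give these genes, and the Krt7 window touches the antisense gene Gm671, which stayed at or under 2.97 CPM in every library.

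In experiment 1, TGFβ1-treated NMuMG cells lost most of their Krt19 mRNA within 24 h and gained Nes and Krt80, while Vim, often used to mark a mesenchymal transition, moved less. At 72 h against 0 h, Krt19 was 10.6-fold lower in PBRM1 KO and 10.8-fold lower in Control libraries, Nes was 7.94-fold and 7.31-fold higher, and Vim was 1.13-fold lower in PBRM1 KO with no call in Control. By edgeR's quasi-likelihood test at a Benjamini-Hochberg adjusted p under 0.05, 3 of the 8 tested members were higher and 5 lower in PBRM1 KO libraries, where 36.2% of all 14345 tested genes were higher and 34.9% lower. In Control libraries 3 members were higher and 4 lower, beside 34.9% and 34.4% of all genes. The members' median log2 fold change was −0.32 in PBRM1 KO and −0.037 in Control libraries, and that of all genes was 0.0010 and 0.00068. Scaling by library totals alone, in place of TMM, moved the median of all genes by −0.19 in PBRM1 KO and −0.12 in Control libraries. The share of calls that were higher was then 36.0% in place of 50.9% and 40.2% in place of 50.4%.

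**Figure D1:**
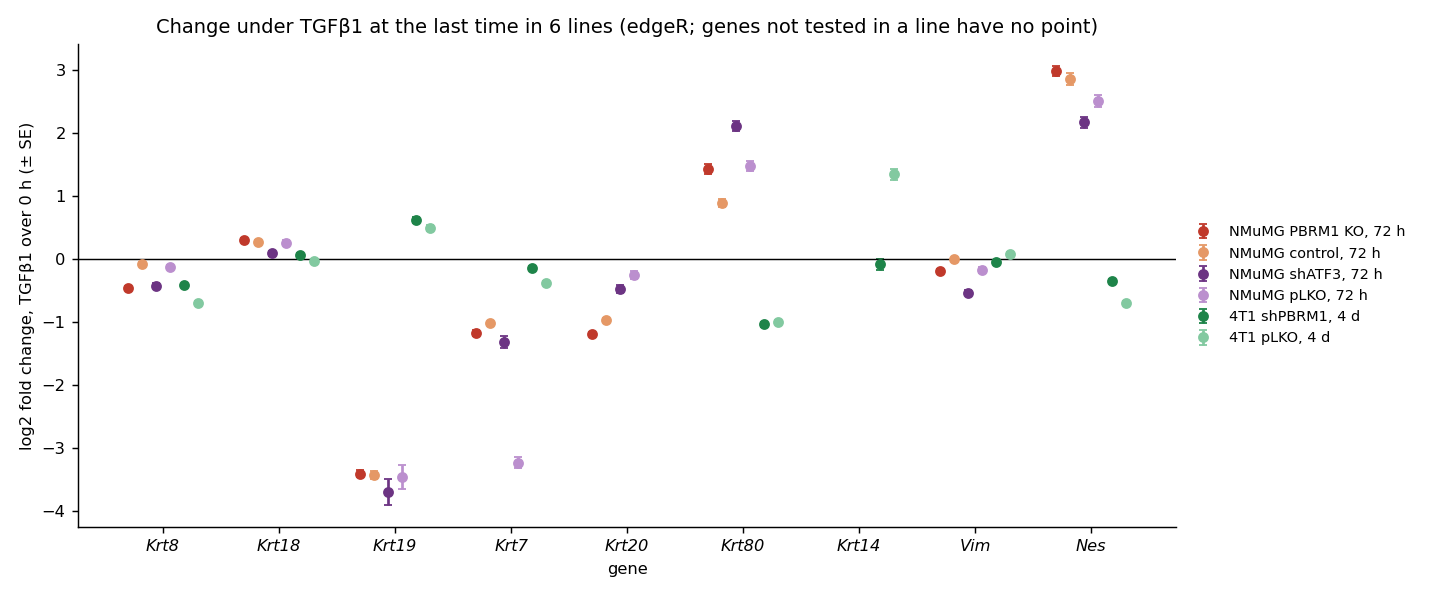
Log2 fold change (edgeR, ± SE) of each tested gene at the last time of TGFβ1 over 0 h, with 1 point for each of the 6 lines. Krt19 lies between −3.70 and −3.41 and Nes between 2.18 and 2.99 in the 4 NMuMG lines, and both have the opposite sign in 4T1.

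Krt8 and Krt18, the partners of the simple epithelial filament, parted from each other over the time course. Krt8 had 4025, 4101 and 3931 CPM at 0 h, 4262, 4312 and 4374 CPM at 24 h, 3601, 3697 and 3614 CPM at 48 h and 2939, 2981 and 2867 CPM at 72 h in PBRM1 KO libraries. Control libraries had 4817, 4982 and 4906 CPM at 0 h, 6072, 6075 and 5906 CPM at 24 h, 5336, 5212 and 5029.8 CPM at 48 h and 4610.4, 4619 and 4782 CPM at 72 h. In both lines Krt8 peaked at 24 h, and at 72 h all 3 libraries lay below those at 0 h, by a wide margin in PBRM1 KO and a narrow one in Control libraries. The 72 h log2 fold change was −0.46 (SE 0.023, adjusted p = 4.01e-26) in PBRM1 KO and −0.070 (SE 0.023, adjusted p = 0.00617) in Control libraries. Krt18 had 2389, 2429.8 and 2330.1 CPM at 0 h, 3290.4, 3291 and 3254 CPM at 24 h, 2928, 3033 and 2957 CPM at 48 h and 2892, 2989 and 2980.0 CPM at 72 h in PBRM1 KO libraries. Control libraries had 3281, 3353 and 3343 CPM at 0 h, 4570.0, 4493 and 4447 CPM at 24 h, 3981, 4088 and 3995 CPM at 48 h and 3988, 4016 and 4084 CPM at 72 h. All treated libraries of both lines lay above their 0 h libraries, with the highest values at 24 h. At 72 h Krt18 was higher by 0.31 (SE 0.022, adjusted p = 2.48e-19) in PBRM1 KO and 0.28 (SE 0.022, adjusted p = 2.57e-17) in Control libraries. The rise of Krt8 at 24 h in PBRM1 KO libraries, 0.10, was lost with library totals alone (0.0028, adjusted p = 0.92). Krt8-ps, a Krt8 pseudogene, shares 57.4% of its 896 stretches of 50 bases with Krt8 transcripts, so some reads may have been split between both rows. It had at most 23.5 CPM in any library, and adding its reads to Krt8 changed none of 39 Krt8 results. The Krt8-ps row is so small beside Krt8 that adding it could change little. It also cannot show reads of the pseudogene counted in Krt8 or reads left uncounted.

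Krt19, the short type I keratin of ducts, fell the most of all members. PBRM1 KO libraries had 1022, 1172 and 1050.1 CPM at 0 h, 47.7, 54.8 and 67.4 CPM at 24 h, 103, 112 and 104 CPM at 48 h and 96.7, 118 and 90.0 CPM at 72 h. Control libraries had 1321, 1356 and 1304 CPM at 0 h, 140.3, 138 and 133 CPM at 24 h, 129.6, 129.5 and 117 CPM at 48 h and 112, 139 and 117 CPM at 72 h. In neither line did any treated library overlap the 0 h libraries, and the PBRM1 KO libraries were lowest at 24 h and higher again at 48 h. The log2 fold change at 24 h was −4.26 (SE 0.065, adjusted p = 2.00e-52) in PBRM1 KO and −3.27 (SE 0.058, adjusted p = 6.97e-49) in Control libraries. That difference in response passed the test (−0.99, SE 0.087, adjusted p = 5.59e-14), and at 72 h the responses were −3.41 and −3.43 with no call on their difference (0.025, SE 0.084, adjusted p = 0.873). From 24 to 48 h Krt19 rose by 0.91 (SE 0.074, adjusted p = 1.50e-16) in PBRM1 KO libraries, whereas Control gave −0.13 (SE 0.062, adjusted p = 0.0987), a call that was gained with no filter, with only the groups compared and with the replicate block (adjusted p of 4.92e-04 to 0.034).

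Krt7, another type II keratin of ducts and glands, rose briefly and then fell. PBRM1 KO libraries had 73.4, 66.6 and 69.4 CPM at 0 h, 105, 107 and 111 CPM at 24 h, 70.0, 64.9 and 71.7 CPM at 48 h and 31.1, 31.4 and 30.6 CPM at 72 h. Control libraries had 770.2, 786 and 798 CPM at 0 h, 1039.8, 1035 and 1024 CPM at 24 h, 808, 792 and 785 CPM at 48 h and 401, 375 and 382 CPM at 72 h. Both time courses were highest at 24 h and lowest at 72 h, at very different heights, and no PBRM1 KO library reached any Control library at any time. The log2 fold change was 0.62 at 24 h and −1.17 (SE 0.046, adjusted p = 8.93e-32) at 72 h in PBRM1 KO libraries, and 0.40 and −1.02 (SE 0.029, adjusted p = 5.93e-39) in Control libraries. The responses at 24 h differed (0.23, SE 0.047, adjusted p = 1.51e-04). Krt20, the gut and bladder keratin, averaged 179 ± 2.61 CPM at 72 h and 409 ± 18.6 CPM at 0 h in PBRM1 KO libraries, and 200.2 ± 1.07 and 393 ± 4.29 CPM in Control libraries (SD, n = 3 each). It fell by 72 h in both (−1.19 and −0.97), and at 24 h it was lower in PBRM1 KO (−0.20) and higher in Control libraries (0.14), with a tested difference of −0.34 (SE 0.039, adjusted p = 3.22e-10). Krt80, the less studied type II keratin, averaged 32.1 ± 4.76 CPM at 72 h and 11.9 ± 1.09 CPM at 0 h in PBRM1 KO libraries, and 49.0 ± 2.46 and 26.4 ± 0.371 CPM in Control libraries. It was the keratin that rose most, by 1.43 (SE 0.083, adjusted p = 1.86e-23) in PBRM1 KO and 0.89 (SE 0.069, adjusted p = 8.66e-18) in Control libraries, and the rise was largely there at 24 h (1.65 and 0.82). Krt80 lies within the span of the antisense gene Gm35853, which had at most 5.15 CPM in any library. The sources used here do not say whether the counting used strand, so reads of both genes cannot be told apart.

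Nes, which encodes nestin, rose steadily. PBRM1 KO libraries had 6.98, 5.59 and 6.31 CPM at 0 h, 29.1, 31.2 and 32.0 CPM at 24 h, 43.9, 42.5 and 40.6 CPM at 48 h and 49.2, 49.1 and 51.6 CPM at 72 h. Control libraries had 4.75, 3.795 and 4.28 CPM at 0 h, 10.2, 12.4 and 10.8 CPM at 24 h, 19.6, 17.5 and 20.4 CPM at 48 h and 29.8, 30.2 and 34.1 CPM at 72 h. All 3 libraries of each treated time stood above those of the time before, in both lines. At 72 h the log2 fold change was 2.99 (SE 0.084, adjusted p = 4.20e-39) in PBRM1 KO and 2.87 (SE 0.10, adjusted p = 9.64e-35) in Control libraries. PBRM1 KO libraries had gained more by 24 h (2.29 and 1.38, tested difference 0.91, SE 0.15, adjusted p = 5.32e-06). Vim, its partner, was high from the start. PBRM1 KO libraries had 2058, 2063 and 1983 CPM at 0 h, 2037, 1996 and 2039 CPM at 24 h, 1632, 1702 and 1619.6 CPM at 48 h and 1737, 1861 and 1783 CPM at 72 h. Control libraries had 1817, 1891 and 1822 CPM at 0 h, 2189, 2195 and 2142 CPM at 24 h, 1808, 1804 and 1777 CPM at 48 h and 1838, 1851 and 1826 CPM at 72 h. In Control libraries the 0 h and 72 h values overlapped, and in PBRM1 KO libraries the 72 h values lay below those at 0 h. At 24 h against 0 h Vim gave −0.0073 (SE 0.024, adjusted p = 0.816) in PBRM1 KO libraries and rose by 0.24 (SE 0.024, adjusted p = 5.68e-13) in Control libraries. At 48 h its log2 fold change was −0.30 (SE 0.025, adjusted p = 6.59e-17) in PBRM1 KO, a fall, and −0.037 (SE 0.024, adjusted p = 0.179) in Control libraries. With library totals alone the PBRM1 KO value at 24 h (−0.11, adjusted p = 5.10e-05) and the Control value at 48 h (−0.13, adjusted p = 2.06e-06) passed as well. The 72 h log2 fold change of Vim was −0.18 (SE 0.024, adjusted p = 1.81e-09) in PBRM1 KO and −0.0040 (SE 0.025, adjusted p = 0.894) in Control libraries, and with library totals alone the Control value became −0.12 (adjusted p = 3.49e-06). Krt5 and Krt14, the basal pair, had 0 to 6 and 0 to 8 counts in each library of experiment 1 and could not be compared.

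**Figure D2:**
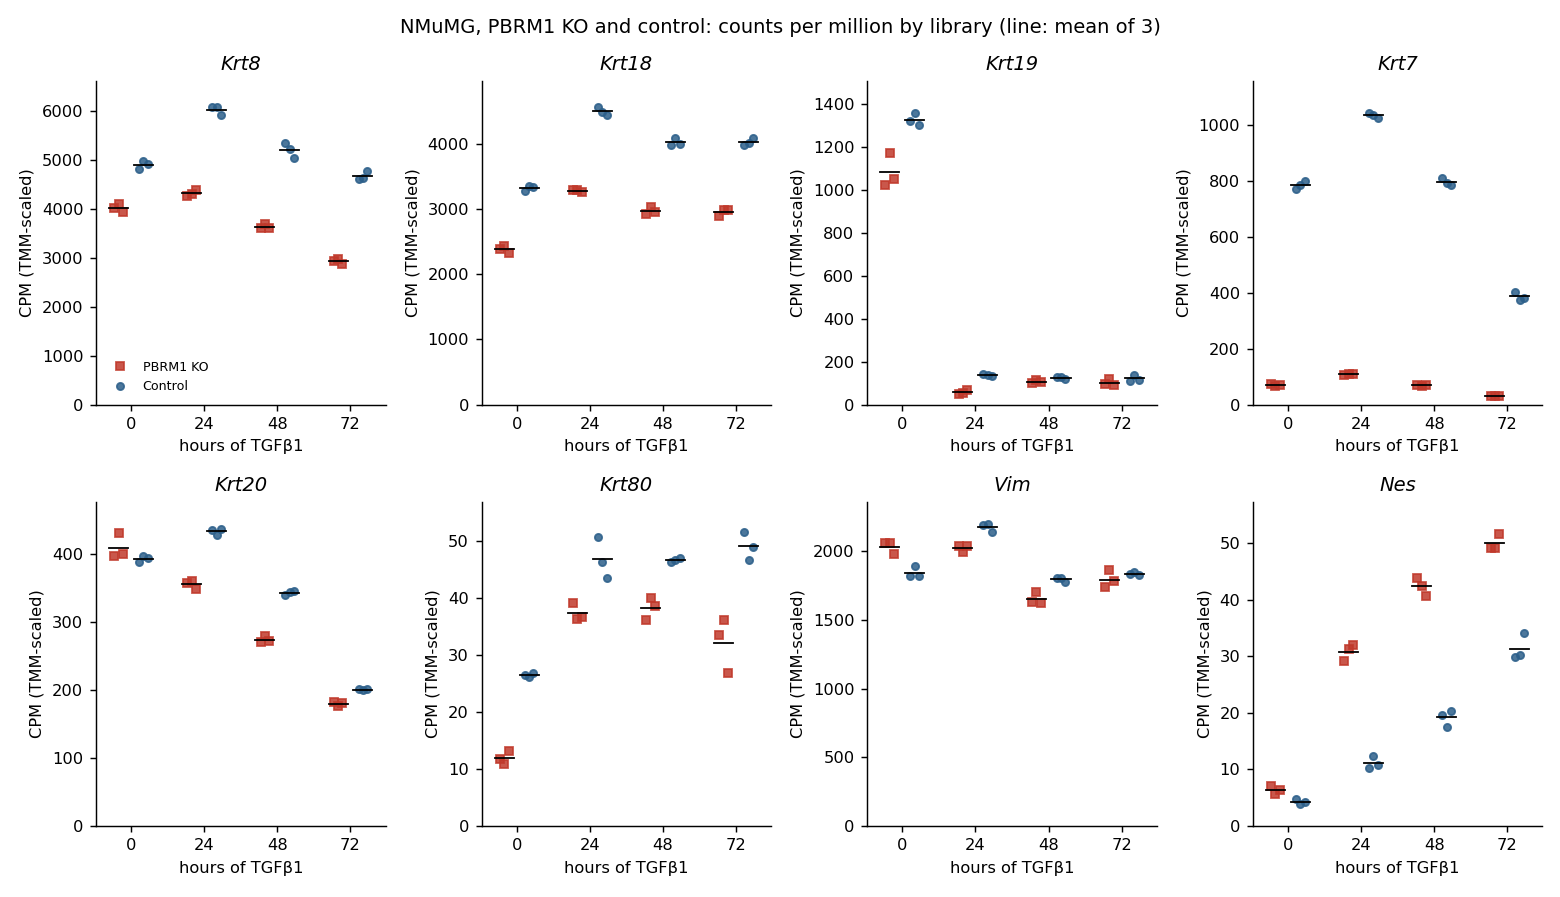
CPM of 8 genes in each library of NMuMG PBRM1 KO (squares) and Control (circles) cells by hours of TGFβ1, with a line at the mean of 3. Krt7 in PBRM1 KO libraries stays at or under 111 CPM, while no Control library is under 375 CPM.

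The summed levels of basal, fibroblast and leukocyte markers were higher at 72 h than at 0 h, and rested on few genes. At 72 h 1 to 4 of 9 basal, 1 or 2 of 7 fibroblast and 2 of 6 leukocyte markers averaged at least 1 CPM in the NMuMG lines. The summed level of 9 basal and myoepithelial markers was 47.0 to 53.0 CPM at 72 h and 0.497 to 0.625 CPM at 0 h in PBRM1 KO libraries, and 27.9 to 30.2 CPM and 0.459 to 1.00 CPM in Control libraries. Most of it was Acta2, smooth muscle actin (48.5 CPM in PBRM1 KO and 24.2 CPM in Control libraries at 72 h), while Trp63, which defines basal cells, averaged at most 0.0415 CPM in these groups. The sum of 7 fibroblast markers was 63.3 to 74.5 CPM at 72 h and 0.547 to 0.729 CPM at 0 h in PBRM1 KO libraries, and 37.1 to 40.0 CPM and 0.635 to 1.17 CPM in Control libraries. Nearly all of it was Pdgfrb, with Dcn and Lum at 0. In experiment 2 the basal sum was 148 to 154 CPM at 72 h and 0.401 to 0.703 CPM at 0 h in libraries labelled shATF3, and 33.4 to 37.5 CPM and 0.6995 to 0.935 CPM in pLKO libraries. The fibroblast sum was 33.7 to 47.6 CPM and 0.645 to 1.05 CPM in libraries labelled shATF3 and 48.3 to 54.6 CPM and 0.219 to 0.888 CPM in pLKO libraries. The 6 leukocyte markers summed to 12.01 to 14.9 CPM at 72 h and 5.57 to 6.42 CPM at 0 h in PBRM1 KO libraries and to 20.1 to 24.3 CPM and 10.8 to 12.5 CPM in Control libraries. Ptprc, the leukocyte surface marker, averaged 0.0369 and 0.0408 CPM at 72 h. In experiment 2 they summed to 11.9 to 14.2 CPM and 3.85 to 4.86 CPM in libraries labelled shATF3 and to 9.83 to 11.54 CPM and 4.59 to 5.25 CPM in pLKO libraries. The 5 endothelial markers summed to at most 1.28 CPM in any library of the series. The part of these markers in the changes of the members was not tested.

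In experiment 2 Krt19 again fell, and Nes and Krt80 rose, in both lines. At 72 h against 0 h, 2 of the 8 tested members were higher and 5 lower in libraries labelled shATF3, beside 27.8% and 26.6% of all 14983 tested genes, and 3 were higher and 5 lower in pLKO libraries, beside 28.9% and 29.1%. Library totals alone moved the median of all genes by −0.16 in both lines, and the share of calls that were higher was 35.8% in place of 51.1% in libraries labelled shATF3 and 35.9% in place of 49.8% in pLKO libraries. Krt19 had 256, 278 and 278 CPM at 0 h, 36.3, 32.1 and 31.2 CPM at 24 h, 28.4, 21.2 and 24.2 CPM at 48 h and 24.5, 18.6 and 19.4 CPM at 72 h in libraries labelled shATF3. pLKO libraries had 675, 729 and 711 CPM at 0 h, 110.4, 46.2 and 73.2 CPM at 24 h, 50.7, 32.2 and 34.7 CPM at 48 h and 51.0, 66.9 and 72.9 CPM at 72 h. All treated libraries lay far below their 0 h libraries, and the pLKO libraries at 24 h were widely spread. The 72 h log2 fold change was −3.70 (SE 0.21, adjusted p = 8.95e-15) in libraries labelled shATF3 and −3.47 (SE 0.19, adjusted p = 5.83e-15) in pLKO libraries. Krt19 fell further in pLKO libraries from 24 to 48 h (−0.97), and without replicate 1 of pLKO at 24 h the value was −0.62.

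Krt8 and Krt18 rose sharply at 24 h in experiment 2 and then dropped back. Krt8 had 2696, 2709.7 and 2639.5 CPM at 0 h, 4702, 4411 and 4445 CPM at 24 h, 2358, 2345 and 2233 CPM at 48 h and 2034, 2016 and 1959.8 CPM at 72 h in libraries labelled shATF3. pLKO libraries had 3368, 3546 and 3358 CPM at 0 h, 4768, 4974 and 4747 CPM at 24 h, 3102, 3194 and 3165 CPM at 48 h and 3124, 3220.3 and 3072 CPM at 72 h. The 24 h libraries stood alone above all others in both lines, at 0.75 and 0.50 on the log2 scale. By 72 h Krt8 was below its start, at −0.42 (SE 0.038, adjusted p = 1.95e-10) in libraries labelled shATF3 and −0.13 (SE 0.038, adjusted p = 0.00554) in pLKO libraries. Without replicate 2 of pLKO at 0 h, the pLKO value was −0.090 (adjusted p = 0.073). Krt18 had 2004, 1977 and 2032 CPM at 0 h, 4123, 3939.7 and 3899.6 CPM at 24 h, 2172, 2223 and 2057 CPM at 48 h and 2159, 2172 and 2075 CPM at 72 h in libraries labelled shATF3. pLKO libraries had 2323, 2403 and 2286 CPM at 0 h, 4114, 4158 and 3942 CPM at 24 h, 2526, 2673 and 2782 CPM at 48 h and 2858, 2822 and 2719.9 CPM at 72 h. It rose most at 24 h in libraries labelled shATF3 (log2 fold change 0.99) and was 0.80 in pLKO libraries, and at 72 h it stood at 0.091 (SE 0.041, adjusted p = 0.0642) and 0.26 (SE 0.041, adjusted p = 4.52e-06). The shATF3 value at 72 h passed with DESeq2 (0.093, adjusted p = 0.049) and without replicate 3 at 72 h (0.11, adjusted p = 0.047).

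At 48 h and 72 h Krt7 was the member whose response differed most between the lines of experiment 2, while at 24 h Krt80 differed more (1.14 against 0.79). Libraries labelled shATF3 had 49.2, 49.2 and 49.8 CPM at 0 h, 113, 110.1 and 98.4 CPM at 24 h, 47.6, 49.8 and 47.8 CPM at 48 h and 23.9, 16.3 and 19.2 CPM at 72 h. pLKO libraries had 164, 167 and 171 CPM at 0 h, 197, 227 and 204 CPM at 24 h, 76.1, 64.2 and 74.7 CPM at 48 h and 17.3, 18.6 and 17.2 CPM at 72 h. Libraries labelled shATF3 started lower, and by 72 h the libraries of both lines overlapped. The 72 h log2 fold change was −1.32 (SE 0.092, adjusted p = 1.00e-12) in libraries labelled shATF3 and −3.24 (SE 0.091, adjusted p = 1.28e-21) in pLKO libraries, with a tested difference of 1.92 (SE 0.13, adjusted p = 1.52e-11). Krt20 fell by 72 h in both lines (−0.47 and −0.25). Krt80 rose to 65.2 ± 4.46 CPM, against 15.02 ± 1.04 CPM at 0 h, in libraries labelled shATF3 and to 59.4 ± 2.48 CPM, against 21.3 ± 2.23 CPM, in pLKO libraries (SD, n = 3 each). The rise of Krt80 was larger in libraries labelled shATF3 (2.11 and 1.48, tested difference 0.64, SE 0.12, adjusted p = 2.74e-04).

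Nes rose in experiment 2, and Vim was lower at 24 h and 72 h than at 0 h. Nes had 36.0, 35.5 and 31.9 CPM at 0 h, 102, 94.8 and 92.3 CPM at 24 h, 168, 159 and 163 CPM at 48 h and 153, 176 and 139.9 CPM at 72 h in libraries labelled shATF3. pLKO libraries had 15.2, 13.7 and 16.5 CPM at 0 h, 33.8, 38.8 and 36.5 CPM at 24 h, 70.5, 83.7 and 85.0 CPM at 48 h and 88.8, 91.6 and 78.5 CPM at 72 h. Libraries labelled shATF3 were above pLKO libraries at every time, and in both lines 48 h and 72 h libraries overlapped. The 72 h log2 fold change of Nes was 2.18 (SE 0.086, adjusted p = 3.63e-18) in libraries labelled shATF3 and 2.51 (SE 0.093, adjusted p = 6.41e-19) in pLKO libraries. Vim had 1736, 1615 and 1614 CPM at 0 h, 1333, 1311 and 1284 CPM at 24 h, 1633, 1663 and 1592 CPM at 48 h and 1143, 1194 and 1099 CPM at 72 h in libraries labelled shATF3. pLKO libraries had 2008, 2124 and 2024 CPM at 0 h, 1844, 1799.8 and 1775 CPM at 24 h, 2136, 1937 and 1966 CPM at 48 h and 1771, 1791 and 1894 CPM at 72 h. Every library labelled shATF3 lay below all pLKO libraries of its time, and the lowest values of all were those labelled shATF3 at 72 h. At 24 h the log2 fold change of Vim was −0.34 (SE 0.045, adjusted p = 3.07e-07) in libraries labelled shATF3 and −0.18 (SE 0.045, adjusted p = 9.98e-04) in pLKO libraries. At 48 h it was −0.023 (SE 0.045, adjusted p = 0.710) and −0.028 (SE 0.044, adjusted p = 0.631), and with library totals alone both passed (−0.16 and −0.17, adjusted p of 0.0011 and 6.89e-04). Vim fell by 72 h, and its log2 fold change was −0.53 (SE 0.045, adjusted p = 5.57e-11) in libraries labelled shATF3 and −0.17 (SE 0.045, adjusted p = 0.00146) in pLKO libraries. The difference passed the test (−0.36, SE 0.063, adjusted p = 1.72e-04). Krt5 and Krt14 again had only 0 to 3 and 0 to 6 counts in each library.

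**Figure D3:**
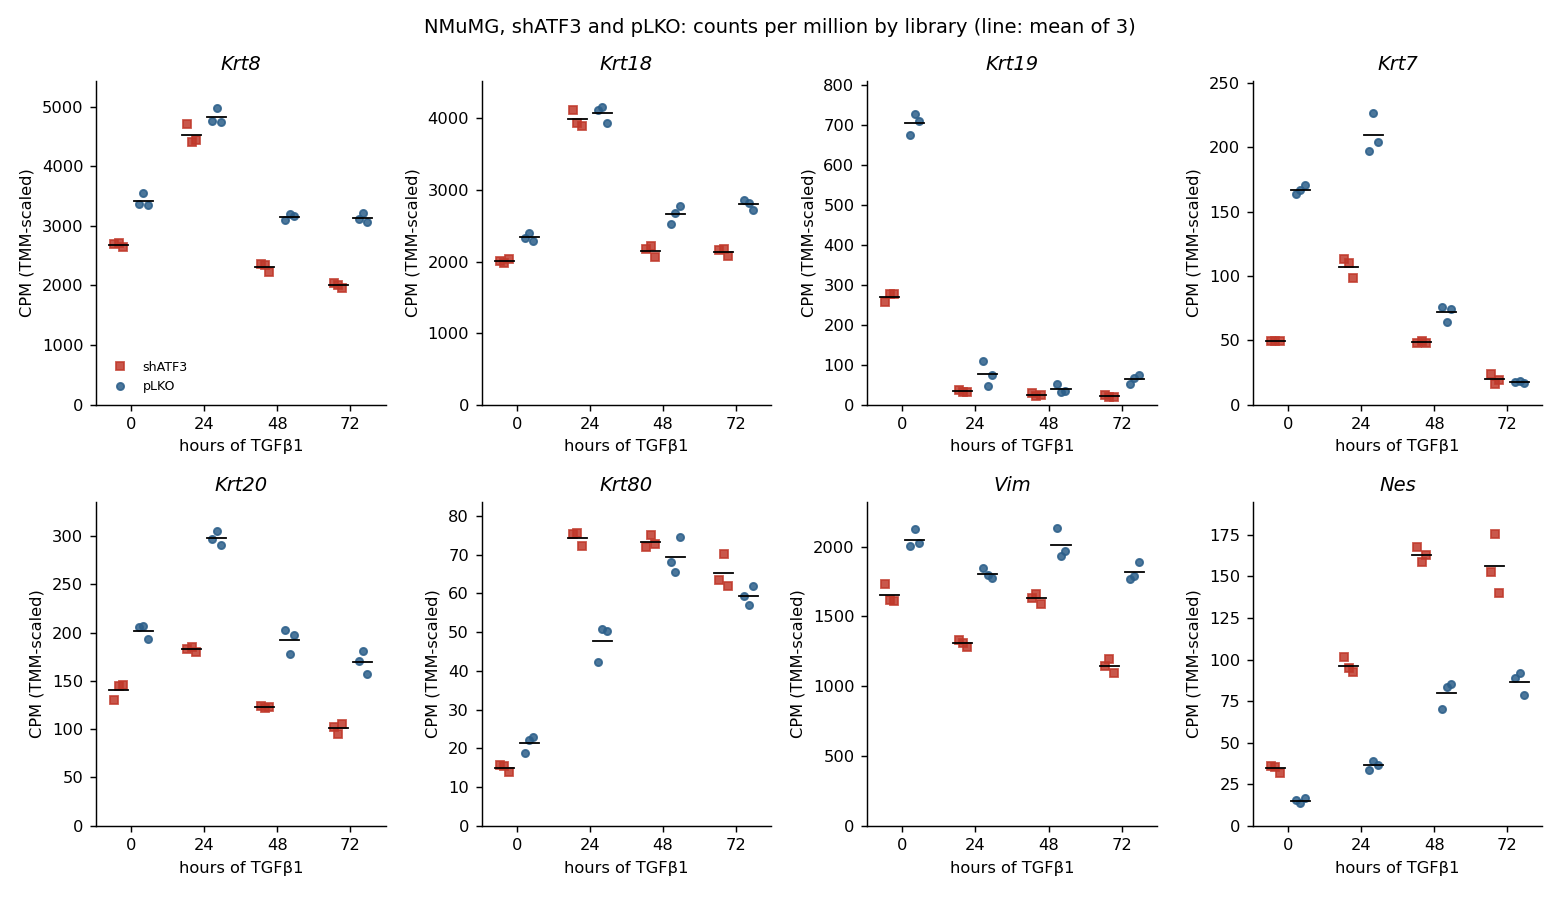
CPM of 8 genes in each NMuMG library labelled shATF3 (squares) and pLKO (circles) by hours of TGFβ1, with a line at the mean of 3. Krt8 and Krt18 peak at 24 h in both lines, and the Krt7 values meet at 72 h.

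In 4T1 carcinoma cells under TGFβ1, Krt19 rose while Nes, Krt80, Krt8 and Krt7 fell, and Krt18 and Vim stayed near their starting levels. At 4 d against 0 h, 2 of 8 tested members were higher and 4 lower in shPBRM1 libraries, beside 35.2% and 34.7% of all 13854 tested genes, and 3 were higher and 4 lower in pLKO libraries, beside 39.1% and 35.4%. Krt19 had 153, 179 and 184 CPM at 4 d and 118, 109 and 106 CPM at 0 h in shPBRM1 libraries, and 148, 160.0 and 152 CPM at 4 d and 112, 108 and 106 CPM at 0 h in pLKO libraries. All libraries at 4 d were above all at 0 h, and Krt19 rose by 0.63 (SE 0.046, adjusted p = 3.58e-14) in shPBRM1 and 0.50 (SE 0.047, adjusted p = 1.18e-11) in pLKO libraries. Nes had 288, 294 and 277 CPM at 4 d and 353, 374 and 365 CPM at 0 h in shPBRM1 libraries, and 251, 244 and 247 CPM at 4 d and 399, 399 and 405 CPM at 0 h in pLKO libraries. It fell in both without overlap, with log2 fold changes of −0.34 (SE 0.027, adjusted p = 2.38e-13) in shPBRM1 and −0.70 (SE 0.028, adjusted p = 8.44e-22) in pLKO libraries. Krt80 fell to 50.7 ± 1.58 CPM at 4 d, against 104 ± 1.57 CPM at 0 h, in shPBRM1 libraries and to 62.0 ± 3.50 CPM, against 124 ± 3.30 CPM, in pLKO libraries, with log2 fold changes of −1.03 and −1.001. The opposite signs of Krt19, Nes and Krt80 in NMuMG and 4T1 come from separate tables and different times, and the difference between the lines was not tested.

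Krt8 had 1098, 1124 and 1151 CPM at 4 d and 1509.9, 1499 and 1488 CPM at 0 h in shPBRM1 libraries of 4T1. pLKO libraries had 854, 856 and 854 CPM at 4 d and 1391, 1359 and 1396 CPM at 0 h. Krt8 fell without overlap in both, with log2 fold changes of −0.41 (SE 0.022, adjusted p = 7.51e-18) in shPBRM1 and −0.69 (SE 0.022, adjusted p = 3.02e-24) in pLKO libraries. Its partner Krt18 averaged 1267 ± 33.9 CPM at 4 d and 1206 ± 14.3 CPM at 0 h in shPBRM1 libraries and 1201 ± 5.45 and 1220.3 ± 29.8 CPM in pLKO libraries (SD, n = 3 each). The small rise in shPBRM1 libraries (0.071, SE 0.023, adjusted p = 0.00763) was lost without replicate 3 at 4 d (0.038, adjusted p = 0.16) and without replicate 2 or 3 at 0 h (0.052 and 0.058, adjusted p of 0.10 and 0.065). The pLKO value was −0.023 (SE 0.023, adjusted p = 0.379), and with no filter on low counts it passed (−0.061, adjusted p = 0.031). Krt7 had 851, 848 and 851 CPM at 4 d and 942, 931 and 928 CPM at 0 h in shPBRM1 libraries, and 982, 1007 and 939 CPM at 4 d and 1278, 1263 and 1259 CPM at 0 h in pLKO libraries. It fell without overlap in both lines (−0.14 and −0.38). Krt14, the basal type I keratin, had 13.1, 12.8 and 10.3 CPM at 4 d and 12.9, 13.2 and 12.5 CPM at 0 h in shPBRM1 libraries, and 17.1, 17.3 and 15.4 CPM at 4 d and 6.37, 6.41 and 6.83 CPM at 0 h in pLKO libraries. The shPBRM1 libraries of both times overlapped, and the pLKO libraries did not. Krt14 rose in pLKO libraries (1.35, SE 0.091, adjusted p = 2.21e-15) and gave −0.083 (SE 0.083, adjusted p = 0.383) in shPBRM1 libraries, and the difference passed the test (−1.43, SE 0.12, adjusted p = 5.12e-11). Its type II partner Krt5 had 0 counts in all 12 libraries of 4T1, and the floor of 3 counts over a group allows up to 0.0395 CPM in pLKO libraries at 0 h. Krt20 had 0 to 9 counts in each library.

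Vim in 4T1 had 1902, 1960.4 and 2032 CPM at 4 d and 2054, 2016 and 2013 CPM at 0 h in shPBRM1 libraries. pLKO libraries had 1699, 1722 and 1715 CPM at 4 d and 1623, 1591 and 1630.2 CPM at 0 h. Both changes were small: −0.045 (SE 0.022, adjusted p = 0.0715) in shPBRM1 libraries, whose times overlapped, and 0.084 (SE 0.022, adjusted p = 0.00112) in pLKO libraries, whose times did not. The shPBRM1 value passed without replicate 3 at 4 d (−0.082, adjusted p = 0.0014) and without replicate 2 or 3 at 0 h (−0.062 and −0.061, adjusted p of 0.041 and 0.040), and the pLKO value was lost with no filter (0.047, adjusted p = 0.095). The 9 basal markers summed to 12.4 to 14.8 CPM at 4 d and 13.8 to 14.9 CPM at 0 h in shPBRM1 libraries and to 16.2 to 18.8 CPM and 6.84 to 7.13 CPM in pLKO libraries. Most of it was Krt14 itself, with Trp63 averaging 0.0360 and 0.0582 CPM at 4 d. The 7 fibroblast markers summed to 33.8 to 38.4 CPM at 4 d and 21.9 to 22.2 CPM at 0 h in shPBRM1 libraries and to 24.8 to 28.4 CPM and 13.3 to 14.4 CPM in pLKO libraries, most of it Pdgfra. The 6 leukocyte markers summed to 13.8 to 16.2 CPM and 5.40 to 6.72 CPM in shPBRM1 and to 16.04 to 18.3 CPM and 5.13 to 5.81 CPM in pLKO libraries. The part of these markers in the 4T1 changes was not tested.

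**Figure D4:**
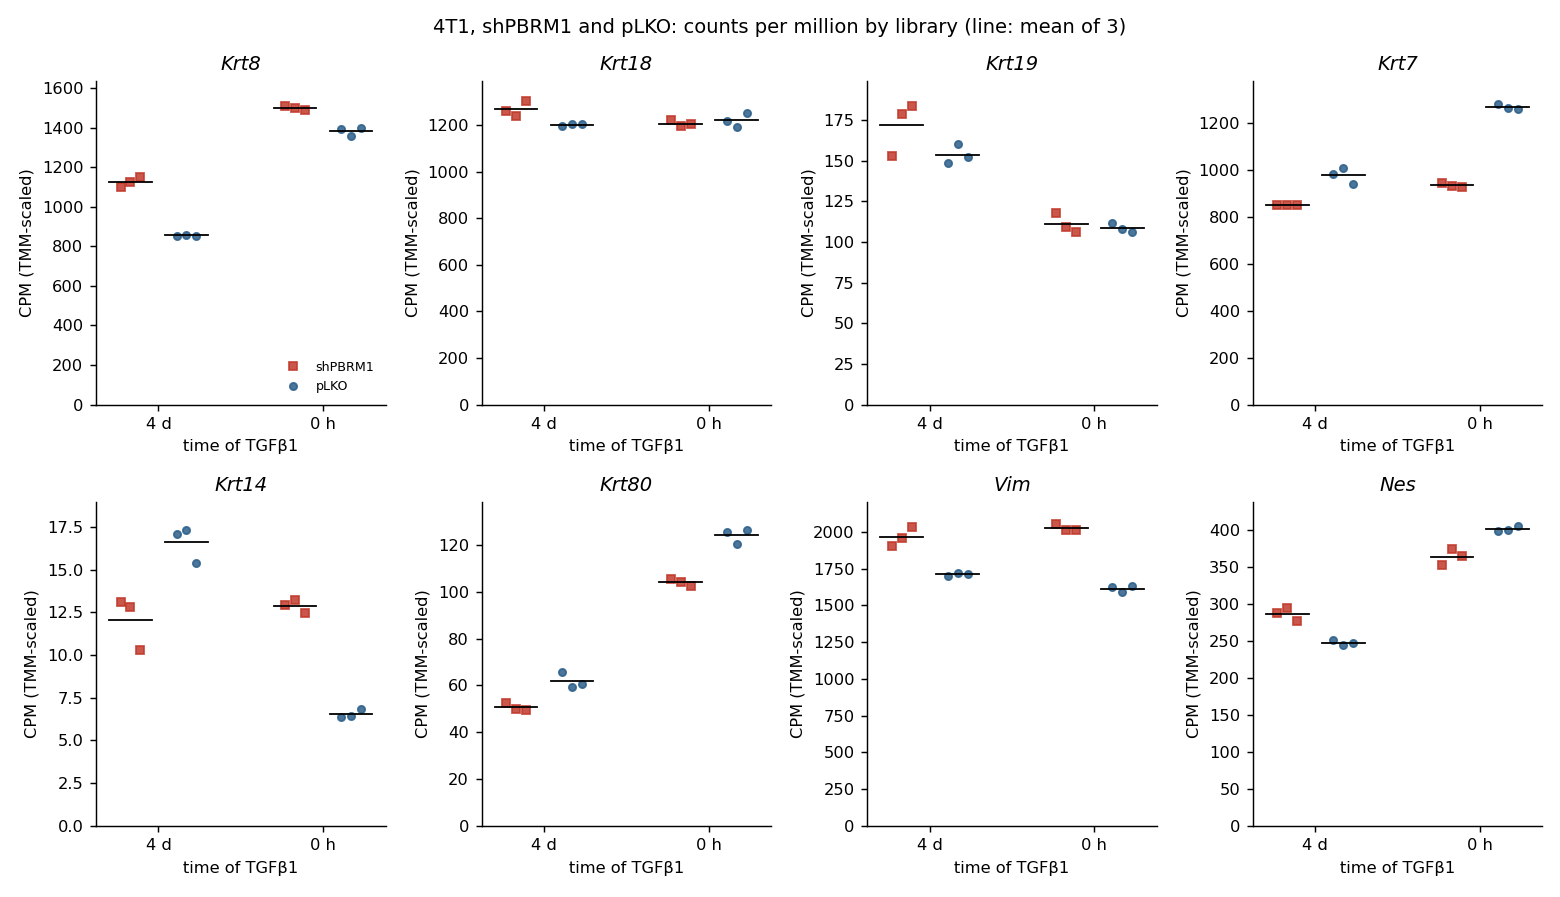
CPM of 8 genes in each 4T1 library of shPBRM1 (squares) and pLKO (circles) at 4 d and 0 h of TGFβ1, with a line at the mean of 3. Krt14 in pLKO libraries lies between 15.4 and 17.3 CPM at 4 d and between 6.37 and 6.83 CPM at 0 h, while the shPBRM1 libraries lie between 10.3 and 13.2 CPM at both times.

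PBRM1 KO libraries of NMuMG had far less Krt7 than Control libraries, less Krt8, Krt18, Krt19 and Krt80, and more Nes. At 0 h 2 of 8 tested members were higher and 5 lower in PBRM1 KO than in Control libraries, beside 21.9% and 23.2% of all genes, and at 72 h 1 was higher and 6 lower, beside 24.3% and 25.6%. Krt7 averaged 69.8 ± 3.41 CPM in PBRM1 KO and 784 ± 13.7 CPM in Control libraries at 0 h (SD, n = 3 each), which is 11.2-fold lower. The log2 fold change was −3.49 (SE 0.034, adjusted p = 3.05e-62) at 0 h, −3.26 at 24 h, −3.53 at 48 h and −3.64 at 72 h. The pLKO libraries of NMuMG in experiment 2 had 164 to 171 CPM of Krt7 at 0 h and 17.2 to 18.6 CPM at 72 h. PBRM1 KO libraries had 30.6 to 31.4 CPM at 72 h, and the experiments were not tested against each other. Krt18 was lower in PBRM1 KO than in Control libraries by a near constant amount (−0.48, −0.46, −0.44 and −0.45 at 0, 24, 48 and 72 h). The gap in Krt8 widened over the same times (−0.29, −0.48, −0.51 and −0.67). In both genes no PBRM1 KO library reached a Control library of its time. Krt80 was lower at every time (−1.15, −0.32, −0.29 and −0.61), and Krt19 was lower most at 24 h (−0.30, −1.28, −0.24 and −0.27), with overlapping libraries at 72 h. Krt20 did not pass the test at 0 h (0.058, SE 0.028, adjusted p = 0.0835), although all 3 PBRM1 KO libraries were above all Control libraries and it passed with library totals alone (0.084, adjusted p = 0.0092) and without replicate 1 or 3 of PBRM1 KO at 0 h (adjusted p of 0.033 and 0.048), and was lower at the 3 later times. Nes went the other way and was higher at every time (0.55, 1.46, 1.15 and 0.67), without overlap of libraries. Vim was slightly higher at 0 h (0.14, SE 0.024, adjusted p = 1.77e-06) and gave −0.035 (SE 0.025, adjusted p = 0.240) at 72 h. The 72 h value passed with library totals alone (−0.078, adjusted p = 0.0037) and without replicate 2 of PBRM1 KO at 72 h (−0.070, adjusted p = 0.025). The response to TGFβ1 at 72 h differed in 5 members, with 1 higher (Krt80, 0.54) and 4 lower (Krt8 −0.39, Krt20 −0.22, Vim −0.18 and Krt7 −0.15), beside 11.6% and 15.8% of all genes. The Krt7 difference (adjusted p = 0.0354) missed the threshold with no filter on low counts (adjusted p = 0.058) and when any 1 of 4 libraries was left out, such as replicate 1 of PBRM1 KO at 0 h (−0.11, adjusted p = 0.15). With library totals alone, 26.1% of the genes called in the 72 h interaction were higher, in place of 42.4%.

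In 4T1, libraries of the PBRM1 knockdown had less Krt7 and Krt80 than pLKO libraries, more Krt8 and Vim, and a difference in Krt14 that changed sign with TGFβ1. At 0 h 3 of 8 tested members were higher and 3 lower in shPBRM1 than in pLKO libraries, beside 27.5% and 23.5% of all genes, and at 4 d 5 were higher and 3 lower, beside 27.8% and 27.3%. With library totals alone, 65.4% of all calls at 0 h were higher in place of 54.0%, and 61.6% in place of 50.5% at 4 d. Krt7 was lower in shPBRM1 libraries at both times (−0.44, SE 0.024, adjusted p = 4.56e-17 at 0 h and −0.20 at 4 d), and so was Krt80 (−0.26 and −0.29). Krt8 was higher at both times (0.12 and 0.39), as was Vim (0.33, SE 0.022, adjusted p = 2.32e-14 at 0 h and 0.20 at 4 d). Krt14 was higher at 0 h (0.98, SE 0.094, adjusted p = 1.02e-10) and lower at 4 d (−0.45, SE 0.080, adjusted p = 1.14e-05), and Nes was lower at 0 h (−0.14) and higher at 4 d (0.21), each without overlap of libraries. Krt19 gave 0.031 (SE 0.048, adjusted p = 0.617) at 0 h, and its 4 d value (0.16, SE 0.045, adjusted p = 0.00307) was lost without replicate 3 of shPBRM1 at 4 d (0.10, adjusted p = 0.055). Krt18 gave −0.017 (SE 0.023, adjusted p = 0.581) at 0 h, which passed with only the groups compared (−0.036, adjusted p = 0.040). Its 4 d value (0.077, SE 0.023, adjusted p = 0.00545) was lost without the same library (0.052, adjusted p = 0.069). The response to TGFβ1 differed in 6 members, 4 higher (Krt8, Krt7, Krt18 and Nes) and 2 lower (Krt14 and Vim), beside 13.2% and 15.1% of all genes. The Krt18 difference (adjusted p = 0.0306) lost its call without replicate 1 or 3 of pLKO at 0 h or replicate 1 of pLKO at 4 d (lowest 0.077, adjusted p = 0.11). The Krt19 difference gained one without replicate 1 of shPBRM1 at 4 d (0.21, adjusted p = 0.0022) or at 0 h (0.18, adjusted p = 0.046), and with no filter (0.16, adjusted p = 0.011). The members passing ranged from 5 to 7 when 1 library was left out. The Krt7 gaps of PBRM1 KO in NMuMG and of shPBRM1 in 4T1 have the same sign, as do those of Krt80. The gaps of Krt8, and those of Nes at 0 h, have opposite signs in these lines. At 0 h Krt7 was also lower in libraries labelled shATF3 than in pLKO libraries of NMuMG. Whether the sizes of these gaps differ was not tested.

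Libraries labelled shATF3 had less of every tested keratin at 0 h than pLKO libraries. At 0 h 1 of 8 tested members was higher and 7 lower, beside 18.6% and 18.4% of all genes, and at 72 h 1 was higher and 5 lower, beside 15.6% and 15%. Krt7 (−1.76, SE 0.082, adjusted p = 1.50e-15) and Krt19 (−1.38, SE 0.17, adjusted p = 3.25e-07) were lowest relative to pLKO libraries at 0 h, without overlap of libraries. The Krt7 gap closed over time (−0.96 at 24 h, −0.57 at 48 h and 0.16, SE 0.10, adjusted p = 0.254 at 72 h), and the Krt19 gap was −1.21 at 24 h, −0.67 at 48 h and −1.61 at 72 h. The Krt19 call at 48 h was lost without replicate 1 of pLKO at that time (−0.44, adjusted p = 0.16) and without replicate 2 or 3 of shATF3 (−0.58 and −0.66, adjusted p of 0.078 and 0.053). Krt20 was lower at all times (−0.53 to −0.75 from 0 to 72 h), and Vim was lowest relative to pLKO libraries at 72 h (−0.67, SE 0.045, adjusted p = 5.61e-12, and −0.31 at 0 h). Krt8 and Krt18 did not pass the test at 24 h, with −0.10 (SE 0.038, adjusted p = 0.0528) and −0.030 (SE 0.041, adjusted p = 0.638), and were lower at 0, 48 and 72 h. The Krt8 value at 24 h passed under 5 alternatives (DESeq2, RLE scaling, library totals alone, only the groups compared and the replicate block), at −0.14 to −0.095 with adjusted p of 0.0035 to 0.045, and without replicate 1 of shATF3 at 24 h (−0.13, adjusted p = 0.019). Nes was higher at all times (1.19, 1.41, 1.03 and 0.85 at 0, 24, 48 and 72 h). The response to TGFβ1 at 72 h differed in 4 members, 2 higher (Krt7 and Krt80) and 2 lower (Krt8 and Vim), beside 5.67% and 7.19% of all genes, and without replicate 3 of pLKO at 72 h it differed in 7.

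Ratios within a library do not depend on the scaling between libraries, and with 3 libraries a group they are given as descriptions (mean ± SD, n = 3), since an exact test of 3 against 3 cannot go below 0.1. The ratio of Krt8 to Krt18, per kilobase, was lower at the last time than at 0 h in all 6 lines. It was 1.24 ± 0.00104 at 0 h, 0.966 ± 0.0184 at 24 h, 0.898 ± 0.00413 at 48 h and 0.728 ± 0.0201 at 72 h in PBRM1 KO libraries. In Control libraries it was 1.08 ± 0.00757 at 0 h, 0.981 ± 0.0101 at 24 h, 0.948 ± 0.0316 at 48 h and 0.851 ± 0.00772 at 72 h. It was 0.982 ± 0.0268 at 0 h, 0.832 ± 0.00866 at 24 h, 0.789 ± 0.0131 at 48 h and 0.689 ± 0.00643 at 72 h in libraries labelled shATF3. In pLKO libraries it was 1.07 ± 0.00965 at 0 h, 0.871 ± 0.0178 at 24 h, 0.871 ± 0.0336 at 48 h and 0.823 ± 0.0184 at 72 h. In 4T1 it was 0.651 ± 0.0133 at 4 d and 0.912 ± 0.00795 at 0 h in shPBRM1 libraries and 0.523 ± 0.00210 and 0.831 ± 0.0108 in pLKO libraries. The libraries of the last time did not overlap those of 0 h in any line. A lower ratio does not need a higher Krt18, which did not pass the test at the last time in libraries labelled shATF3 or in 4T1 pLKO libraries. The ratio of all type II to all type I members did not follow in Control libraries, with 0.810 at 0 h, 0.940 at 24 h and 0.823 at 72 h. In PBRM1 KO libraries it was 0.842, 0.891 and 0.683 at these times. At 72 h and 0 h it was 0.669 and 0.855 in shATF3-labelled and 0.780 and 0.841 in pLKO libraries. In 4T1 at 4 d and 0 h it was 0.716 and 1.01 in shPBRM1 and 0.630 and 0.993 in pLKO libraries.

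Krt19 made up 2.48 ± 0.334% of the type I keratin mRNA per kilobase at 72 h and 23.7 ± 1.03% at 0 h in PBRM1 KO libraries, and 2.22 ± 0.265% and 22.1 ± 0.338% in Control libraries. The share was 0.725 ± 0.105% and 9.04 ± 0.364% in libraries labelled shATF3 and 1.66 ± 0.328% and 18 ± 0.529% in pLKO libraries. In 4T1 it was 9.43 ± 0.790% at 4 d and 6.61 ± 0.272% at 0 h in shPBRM1 libraries and 8.92 ± 0.281% and 6.43 ± 0.265% in pLKO libraries, so the share shrank in NMuMG and grew in 4T1. Krt7 made up 0.480 ± 0.0282% of the type II mRNA in PBRM1 KO and 4.25 ± 0.0618% in Control libraries at 0 h. Its share was 0.508 ± 0.0105% in libraries labelled shATF3 and 1.34 ± 0.0507% in pLKO libraries, and 14.5 ± 0.0288% in shPBRM1 and 19.9 ± 0.247% in pLKO libraries of 4T1. Per kilobase of the coding transcript these Krt7 shares were higher, such as 0.822% in PBRM1 KO and 7.09% in Control libraries. The 8 keratins together took 0.587 ± 0.00717% of all counts at 72 h and 0.858 ± 0.0224% at 0 h in PBRM1 KO libraries, 0.919 ± 0.0135% and 1.14 ± 0.0142% in Control libraries. They took 0.423 ± 0.00924% and 0.559 ± 0.00910% in libraries labelled shATF3 and 0.603 ± 0.0162% and 0.738 ± 0.0184% in pLKO libraries. In 4T1 they took 0.356 ± 0.00569% at 4 d and 0.392 ± 0.00336% at 0 h in shPBRM1 and 0.321 ± 0.00367% and 0.401 ± 0.00376% in pLKO libraries. The keratin share was lower at the last time in all 6 lines. This share is of library totals and so, unlike the ratios, depends on the scaling. At 24 h it was 0.818 ± 0.00479% in PBRM1 KO, 1.22 ± 0.0108% in Control, 0.855 ± 0.0247% in shATF3-labelled and 0.945 ± 0.0221% in pLKO libraries, above 0 h in all but PBRM1 KO libraries. With TMM scaling the 8 keratins and the pseudogene Krt8-ps together summed to 8166 ± 44.2 CPM at 24 h and 7991 ± 215 CPM at 0 h in PBRM1 KO libraries. The libraries of these times overlapped. Summed keratins stayed far above Vim per kilobase. Their ratio was 10.5 ± 0.179 at 0 h, 11.1 ± 0.154 at 24 h, 11.9 ± 0.148 at 48 h and 9.81 ± 0.209 at 72 h in PBRM1 KO libraries. It was 15.1 ± 0.190 at 0 h, 14.5 ± 0.0862 at 24 h, 15.4 ± 0.104 at 48 h and 14.0 ± 0.288 at 72 h in Control libraries. Libraries labelled shATF3 had 8.59 ± 0.371 at 0 h, 18.9 ± 0.339 at 24 h, 8.07 ± 0.116 at 48 h and 10.7 ± 0.290 at 72 h. pLKO libraries had 8.99 ± 0.0570 at 0 h, 14.5 ± 0.338 at 24 h, 8.51 ± 0.652 at 48 h and 9.62 ± 0.539 at 72 h. In 4T1 it was 4.07 ± 0.0536 at 4 d and 4.26 ± 0.00450 at 0 h in shPBRM1 and 4.19 ± 0.0197 and 5.34 ± 0.0242 in pLKO libraries. The ratio at the last time was lower than at 0 h in PBRM1 KO, Control and both 4T1 lines, higher in libraries labelled shATF3, and overlapped between times in pLKO libraries of NMuMG. The times between did not follow that order: PBRM1 KO libraries were above their 0 h values at 24 h and 48 h, and those labelled shATF3 and pLKO libraries were above at 24 h, while at 48 h pLKO libraries were below 0 h. Per kilobase of the coding transcript, which is shorter for Vim, the ratios were lower, at 4.56 at 72 h and 4.99 at 0 h in PBRM1 KO, 6.54 and 7.21 in Control, 4.98 and 4.01 in shATF3-labelled and 4.47 and 4.25 in pLKO libraries. In 4T1 they were 2.01 and 2.10 in shPBRM1 and 2.10 and 2.69 in pLKO libraries.

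**Figure D5:**
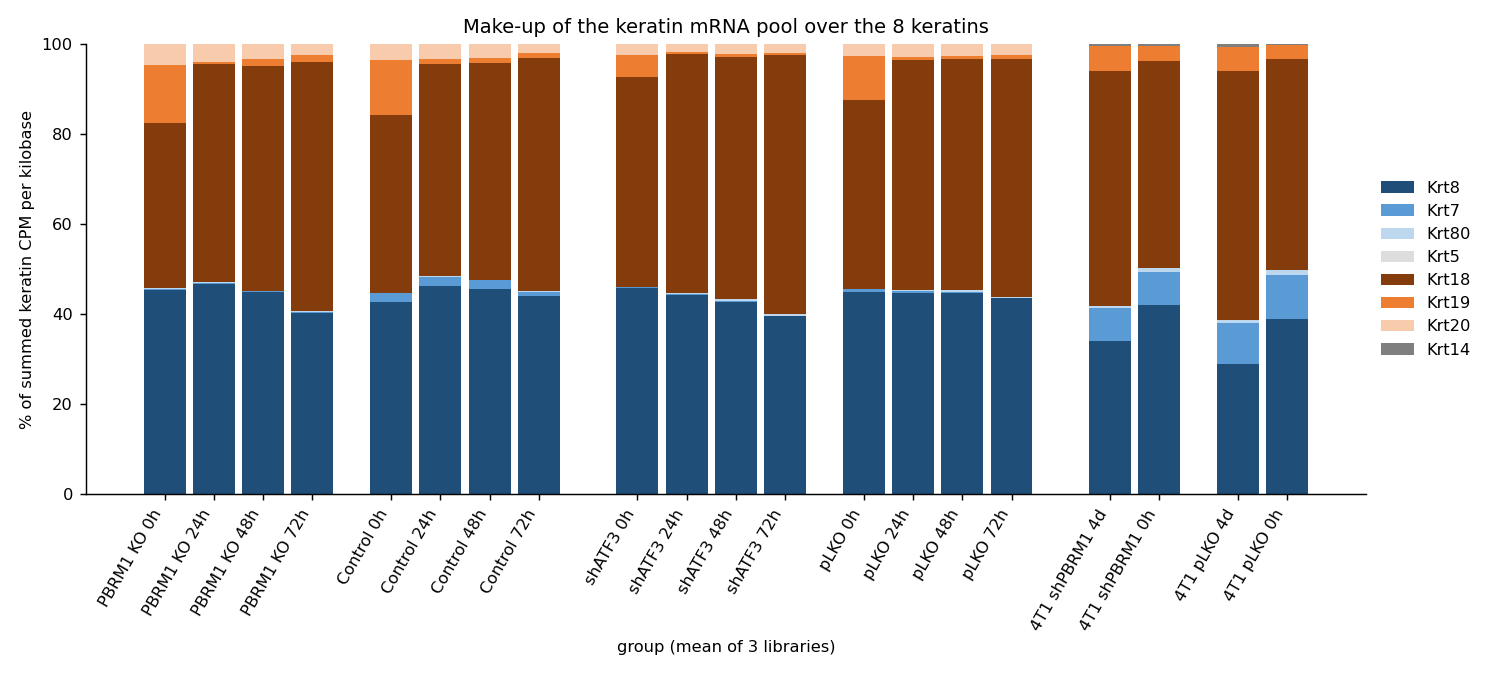
Share of each keratin in the summed keratin CPM per kilobase, as the mean of 3 libraries in each of 20 groups, with type II keratins in blue and light grey and type I keratins in brown, orange and dark grey. Krt19 takes 12.9% in PBRM1 KO and 12.2% in Control libraries at 0 h but 1.47% and 1.22% at 72 h, and Krt7 takes its largest shares in 4T1.

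Genes whose products anchor keratin filaments moved both ways under TGFβ1, where large shares of all genes were called too. Their median change was below that of all genes in the NMuMG lines and near it in 4T1. For each list below, the number of tested genes that were higher and lower is followed by the shares of all tested genes that were higher and lower, and by the median log2 fold change of the list against that of all genes. Of a list of 20 linker and desmosome genes there were 6 higher and 11 lower of 17 (36.2% and 34.9% of all genes, median −0.81 against 0.0010) in PBRM1 KO libraries at 72 h. There were 6 higher and 10 lower of 17 (34.9% and 34.4% of all genes, median −0.64 against 0.00068) in Control libraries. There were 5 higher and 10 lower of 16 (27.8% and 26.6% of all genes, median −0.32 against −0.0043) in libraries labelled shATF3. There were 5 higher and 8 lower of 16 (28.9% and 29.1% of all genes, median −0.25 against −0.019) in pLKO libraries. Pkp1, the desmosomal plaque protein plakophilin 1, averaged 627 CPM at 72 h and 3.67 CPM at 0 h in PBRM1 KO libraries, 269.7 and 2.49 CPM in Control libraries. It averaged 458 and 6.14 CPM in libraries labelled shATF3 and 638 and 3.36 CPM in pLKO libraries. It rose in all 4 lines (log2 fold changes 7.42, 6.75, 6.22 and 7.57, adjusted p at most 9.18e-27). Ppl, periplakin, which links keratins to the cell edge, averaged 34.2 CPM at 72 h and 307 CPM at 0 h in PBRM1 KO, 74.2 and 430.2 CPM in Control libraries. It averaged 10.98 and 368 CPM in shATF3-labelled and 23.0 and 391 CPM in pLKO libraries. It fell in all 4 (log2 fold changes −3.17, −2.54, −5.07 and −4.09). Dsp, desmoplakin, the main anchor of keratins at desmosomes, fell in PBRM1 KO (−1.25) and Control libraries (−0.87), and Pkp2, plakophilin 2, rose in Control (1.01) and pLKO libraries (0.81). In 4T1 the list gave 7 higher and 8 lower of 17 (35.2% and 34.7% of all genes, median −0.0012 against 0.0061) in shPBRM1 libraries. There were 7 higher and 7 lower of 17 (39.1% and 35.4% of all genes, median −0.00082 against 0.026) in pLKO libraries. It was led by Jup, plakoglobin, which rose (0.93 and 1.09), and Plec, plectin, a linker of all filament systems, which fell (−0.58 and −0.54). Between genotypes the list had 4 higher and 8 lower of 17 (21.9% and 23.2% of all genes, median −0.093 against 0.0039) in PBRM1 KO against Control libraries at 0 h. At 72 h it had 3 higher and 7 lower of 17 (24.3% and 25.6% of all genes, median −0.21 against −0.0027), and Pkp1 was higher (1.22) and the desmosomal cadherin Dsg2 lower (−0.93). Against pLKO libraries, those labelled shATF3 had 5 higher and 3 lower of 16 (18.6% and 18.4% of all genes, median −0.072 against 0.0026) at 0 h. There were 3 higher and 5 lower of 16 (15.6% and 15% of all genes, median −0.13 against 0.011) at 72 h. In 4T1, shPBRM1 against pLKO libraries had 6 higher and 8 lower of 17 (27.5% and 23.5% of all genes, median −0.14 against 0.021) at 0 h. There were 4 higher and 11 lower of 17 (27.8% and 27.3% of all genes, median −0.17 against 0.0060) at 4 d. Dsp (−0.55 and −0.55) and Perp, a desmosomal membrane protein (−0.48 and −0.57), were lower at both times.

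Of a list of 14 other intermediate filament genes there were 1 higher and 5 lower of 6 (36.2% and 34.9% of all genes, median −1.15 against 0.0010) in PBRM1 KO libraries at 72 h. There were 1 higher and 4 lower of 6 (34.9% and 34.4% of all genes, median −0.59 against 0.00068) in Control libraries. There were 1 higher and 4 lower of 5 (27.8% and 26.6% of all genes, median −0.79 against −0.0043) in shATF3-labelled libraries. There were 1 higher and 3 lower of 5 (28.9% and 29.1% of all genes, median −0.49 against −0.019) in pLKO libraries. In 4T1 at 4 d there were 2 higher and 3 lower of 7 (35.2% and 34.7% of all genes, median −0.30 against 0.0061) in shPBRM1 libraries. There were 2 higher and 3 lower of 7 (39.1% and 35.4% of all genes, median −0.28 against 0.026) in pLKO libraries. Lmna, which encodes the nuclear lamins A and C, fell in all 6 lines (−1.16, −0.57, −0.79, −0.70, −0.56 and −0.78 in the same order), and so did the B-type lamin gene Lmnb1 (−1.59, −0.61, −0.86, −0.84, −0.30 and −0.31). Synm, synemin, which like nestin joins vimentin filaments, rose in the 4 NMuMG lines (0.84, 0.69, 2.48 and 1.78) and in 4T1 shPBRM1 libraries (1.38). Most of the 21 other keratins were at or near 0, and 7, 5 and 4 of them could be tested in experiments 1, 2 and 3. A gene near 0, such as Krt17 below, can pass the filter only through the groups where it is high. Its direction then follows from the filter, so the counts and medians of this list describe the genes left and are no evidence of a shared rise or fall. At the last time there were 2 higher and 3 lower of 7 (36.2% and 34.9% of all genes, median −0.31 against 0.0010) in PBRM1 KO libraries. There were 2 higher and 4 lower of 7 (34.9% and 34.4% of all genes, median −0.63 against 0.00068) in Control libraries. Libraries labelled shATF3 had 2 higher and 0 lower of 5 (27.8% and 26.6% of all genes, median 1.15 against −0.0043), and pLKO libraries had 2 higher and 2 lower of 5 (28.9% and 29.1% of all genes, median 0.67 against −0.019). In 4T1 there were 1 higher and 2 lower of 4 (35.2% and 34.7% of all genes, median −0.037 against 0.0061) in shPBRM1 libraries. There were 1 higher and 0 lower of 4 (39.1% and 35.4% of all genes, median 0.51 against 0.026) in pLKO libraries. Krt17, a stress-inducible type I keratin, averaged 0.823 CPM in PBRM1 KO, 1.47 CPM in Control, 0.391 CPM in shATF3-labelled and 2.37 CPM in pLKO libraries at 72 h, and had 0 counts in all 4 groups at 0 h. In 4T1 the stress keratins Krt16 and Krt17 were higher in shPBRM1 than in pLKO libraries at 0 h, with 7.76 and 2.12 CPM of Krt16 (1.88, adjusted p = 2.10e-13) and 1.31 and 0.230 CPM of Krt17 (2.47, adjusted p = 1.30e-07). Of the other keratins, PBRM1 KO against Control libraries had 0 higher and 2 lower of 7 (21.9% and 23.2% of all genes, median −0.29 against 0.0039) at 0 h and 0 higher and 2 lower of 7 (24.3% and 25.6% of all genes, median −0.19 against −0.0027) at 72 h. Libraries labelled shATF3 against pLKO had 0 higher and 2 lower of 5 (18.6% and 18.4% of all genes, median −0.86 against 0.0026) at 0 h and 0 higher and 1 lower of 5 (15.6% and 15% of all genes, median −0.62 against 0.011) at 72 h. In 4T1, shPBRM1 against pLKO libraries had 3 higher and 0 lower of 4 (27.5% and 23.5% of all genes, median 1.83 against 0.021) at 0 h. There were 3 higher and 0 lower of 4 (27.8% and 27.3% of all genes, median 1.40 against 0.0060) at 4 d. Between genotypes the 14 other filament genes had 1 higher and 1 lower of 6 (21.9% and 23.2% of all genes, median 0.090 against 0.0039) in PBRM1 KO against Control libraries at 0 h. There were 0 higher and 3 lower of 6 (24.3% and 25.6% of all genes, median −0.11 against −0.0027) at 72 h. They had 0 higher and 2 lower of 5 (18.6% and 18.4% of all genes, median −0.073 against 0.0026) in shATF3-labelled against pLKO libraries at 0 h. There were 0 higher and 1 lower of 5 (15.6% and 15% of all genes, median −0.063 against 0.011) at 72 h. There were 3 higher and 1 lower of 7 (27.5% and 23.5% of all genes, median 0.13 against 0.021) in shPBRM1 against pLKO libraries of 4T1 at 0 h. There were 3 higher and 1 lower of 7 (27.8% and 27.3% of all genes, median 0.26 against 0.0060) at 4 d.

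The members' patterns across the 20 groups were compared with those of 5137 other genes by Pearson correlation of log2(CPM + 0.5) group means, each experiment centred on its own mean. These values describe groups that share a line, a table and a scaling, and have no p. Krt19 was most like Smtnl2 (r = 0.97), Vstm5 (0.97) and Anxa4 (0.97), and Nes most like Tmem123 (0.96), Slc39a13 (0.95) and Sun2 (0.95). Krt7 was most like Sox12 (0.95), Trip6 (0.92) and Pogk (0.91), Krt18 most like Rem2 (0.87), Syvn1 (0.84) and Nfatc2 (0.81), and Vim most like Crip2 (0.87), Kif7 (0.84) and Wipf1 (0.83). Krt8 was most like its pseudogene Krt8-ps (0.95), whose row may hold reads of Krt8, with Flvcr1 (0.83) and Gm4617 (0.81) next. In the 4 groups of 4T1 alone several of these likenesses turned round, such as Krt7 with Pogk (−0.90) and Nes with Sun2 (−0.95), so those rest on the 16 NMuMG groups. Among the members, Krt8 and Krt18 gave r = 0.77, Krt19 and Nes −0.91, and Krt19 and Krt80 −0.81, while Vim and Nes, whose proteins share filaments, gave −0.50.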

How the data were processed

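Gene-level read counts of 60 RNA-seq libraries were deposited as 3 tables of whole-number, unnormalised counts, 1 per experiment, per the file headers, with gene lengths and mm10 positions beside them. The submitters' processing notes name HISAT2, STAR 2.7.10a, Trim Galore 0.6.7, DESeq2 and edgeR without saying which table each made, and the sources used here do not state the strand used in counting. Libraries of the NMuMG experiments were made and sequenced by a company, and 4T1 libraries with a stranded mRNA kit, per the labels' protocols. Each table was fitted alone.

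Genes passed filterByExpr (minimum count 10, minimum total 15), and all groups of an experiment were fitted in 1 edgeR 4.0.16 quasi-likelihood model (R 4.3.3, TMM scaling, no covariates). The p-values were adjusted by Benjamini and Hochberg over all genes tested, with a threshold of 0.05. SE is the log2 fold change divided by the root of F. The p-values measure the spread between libraries that the labels call biological replicates, and whether these came from separate cultures is not given. The common coefficient of variation was 2.88%, 7.59% and 2.95% in experiments 1, 2 and 3, and very small p-values rest on this narrow spread. The replicate pairs furthest apart, by chi-square per degree of freedom, were those of replicate 2 of shATF3 at 72 h (18.1 and 16.6). CPM used TMM-scaled library sizes, and CPM per kilobase used the table's gene length. Alternatives were DESeq2 1.42.0, RLE scaling, library totals alone, no filter, only the groups compared, a replicate block, each library left out, Krt8-ps reads added to Krt8, and, chosen after seeing the data, coding-transcript length. Replicate numbers were not used to pair libraries in the main fit. Of same-numbered pairs, 0 of 84, 3 of 84 and 0 of 18 had deviations correlated over 0.1, with values of −0.245 to 0.150 in experiment 2. Such a count cannot decide whether same-numbered libraries were prepared together. No libraries were duplicates. The fit was also run on counts simulated from its own estimates of the spread, with far fewer changed genes than were called in the data. That run cannot show how the fit behaves when so many genes change.

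The members and the lists were chosen with earlier results of these data known. All members are named; from each list at most 4 genes per comparison were named, by p among those passing; like genes are the 3 with the highest r whose group means span at least 1 on the log2 scale.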

Additional observations from a re-analysis of the deposited data

Results flagged for a closer look

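The change under TGFβ1 differed between the tested line and its control line, by a passing edgeR interaction, in the cases given here as differences of log2 fold change. For PBRM1 KO over Control at 24 h they were Krt8 −0.19, Krt7 0.23, Krt80 0.83, Krt19 −0.99, Krt20 −0.34, Vim −0.25 and Nes 0.91. At 48 h they were Krt8 −0.23, Krt80 0.86, Krt20 −0.38, Vim −0.26 and Nes 0.59. At 72 h they were Krt8 −0.39, Krt7 −0.15, Krt80 0.54, Krt20 −0.22 and Vim −0.18. Krt80 and Nes gained more, and Krt8, Krt20 and Vim were relatively lower, at each time they appear in this contrast.

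For libraries labelled shATF3 over pLKO at 24 h the differences were Krt8 0.26, Krt7 0.79, Krt80 1.14 and Krt18 0.19. At 48 h they were Krt7 1.19 and Krt80 0.58, and at 72 h Krt8 −0.30, Krt7 1.92, Krt80 0.64 and Vim −0.36. The Krt18 difference lost its call with library totals alone (0.14, adjusted p = 0.10) and when any 1 of 5 libraries was left out (lowest 0.15, adjusted p = 0.10, without replicate 1 of shATF3 at 24 h). The Krt7 difference widened with each time, while that of Krt8 had opposite signs at 24 h and 72 h. In 4T1, shPBRM1 over pLKO at 4 d gave Krt8 0.28, Krt7 0.24, Krt18 0.094, Krt14 −1.43, Vim −0.13 and Nes 0.35.

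Control lines of NMuMG and 4T1 moved opposite ways in every library for 3 genes. Krt80 had log2 fold changes of 0.89 in Control and 1.48 in pLKO NMuMG libraries at 72 h, and −1.001 in 4T1 pLKO libraries at 4 d. Krt19 had −3.43, −3.47 and 0.50, and Nes 2.87, 2.51 and −0.70, in the same libraries. The tables and the times differ, and the difference between the lines was not tested.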

How the results depend on the processing

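Of 312 log2 fold changes of members, 308 kept direction and call with DESeq2, 309 with RLE scaling, 295 with library totals alone, 301 with no filter, 304 with only the groups compared and 310 with the replicate block. Library totals alone turned round 3 small values that passed under 1 of the scalings: Krt8 in Control at 48 h against 0 h (−0.0074, and 0.083 with TMM), Krt7 there (−0.072, and 0.019) and Krt18 in libraries labelled shATF3 at 48 h against 0 h (−0.040, and 0.10). The replicate block added 2 calls, Krt19 in Control at 48 h against 24 h (−0.13, adjusted p = 0.034) and Krt8 in libraries labelled shATF3 against pLKO at 24 h (−0.095, adjusted p = 0.045). Leaving out 1 library kept 2138 of 2208 values on their side of the threshold, and 48 lost and 22 gained a call; the members passing the shATF3 interaction at 72 h ranged from 4 to 7, and Krt18 there (−0.17, adjusted p = 0.057) passed with DESeq2, RLE scaling and no filter (adjusted p of 0.024 to 0.046). Krt80 in PBRM1 KO at 72 h against 48 h lost its call without replicate 3 at 72 h (−0.13 in place of −0.25, adjusted p = 0.14), and Krt7 in libraries labelled shATF3 against pLKO at 72 h gained one without replicate 2 of shATF3 (0.28, adjusted p = 0.033). DESeq2 lost Krt19 of PBRM1 KO against Control at 48 h (adjusted p = 0.077), and no filter lost Vim of 4T1 pLKO at 4 d (0.047, adjusted p = 0.095). Coding-transcript length moved 66 of 100 ratio means by over 1 SD, mostly those with Vim or Krt7. These ratio shifts follow from the changed divisor, which was 2193 in place of 4743 bases for Vim and 4094 in place of 7049 bases for Krt7. The cause of the other shifts was not tested. Counts of a few per library left Krt5, and Krt14 or Krt20, beyond comparison.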
